A study of Homo sapiens with 4 samples.

Results

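NORAD, OIP5-AS1 and GAS5 are 3 long noncoding RNAs, taken here from FLASH-seq tables that list 9667 genes. NORAD (listed under its older name LINC00657) and OIP5-AS1 have rows of their own and were read from the gene start to the listed gene end. GAS5 has no row, so it was read from the 51 bins of 200 bp that fall inside the gene and belong to the window of a listed gene. All 3 were chosen by their signal in tagged-CFAP20 against CFAP20-KO, known from earlier results of these data, so their difference between the groups is given below as a description, with no test.

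FLASH-seq asks which RNA touches a protein. Ultraviolet light crosslinks RNA to protein in the living cell, streptavidin beads pull down a biotin-tagged protein, RNase I trims the RNA that stays attached, and the fragments are sequenced. The tagged-CFAP20 group (2 libraries) came from RPE1 iCas9 p53/puro-dKO CFAP20-KO cells expressing FLASH-BIO-CFAP20, the biotin-tagged protein. The CFAP20-KO group (2 libraries) came from the same knockout cells without it and was the negative control of a series that asks whether CFAP20 binds RNA. RPE1 is a line of human retinal pigment epithelial cells made immortal with telomerase. Both groups therefore share the lost p53 and puromycin resistance genes, the inducible Cas9 and the lost CFAP20, and the labels do not say whether the lines are single clones, how much tagged protein the cells made, or whether replicates were separate cultures. Permutation p-values over these libraries measure the spread between them, which may be technical.

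Noncoding RNAs of this kind work in different places. NORAD is an abundant cytoplasmic RNA without introns that binds Pumilio proteins, which repress mRNAs, through repeated copies of their recognition motif. OIP5-AS1, also known as Cyrano, is a spliced RNA with a conserved, nearly complete match to the microRNA miR-7 and is known to bring about the decay of that microRNA. GAS5 carries small nucleolar RNAs (snoRNAs) in its introns. When the host is spliced these box C/D snoRNAs are cut free and go to the nucleolus, where most guide the methylation of ribosomal RNA, while the spliced host, which begins with a 5′ TOP sequence, is degraded in the cytoplasm when it is translated.

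The snoRNAs of GAS5 are shown first because most of the signal on this gene lay in the bins that overlap them. GAS5 spans chr1:173858559-173868882 on the minus strand (hg38, GENCODE 44), and RefSeq (GRCh38.p14) places 10 box C/D snoRNAs of 60 to 81 bases inside it, together with SNORA103, which shares a bin with SNORD77. SNORD47 (chr1:173864369-173864445) and SNORD81 (chr1:173864146-173864222) lie next to each other, and the 3 bins that hold them had together the largest share of reads. SNORD76 (chr1:173866635-173866715), SNORD79 (chr1:173865350-173865430), SNORD80 (chr1:173864833-173864903) and SNORD44 (chr1:173865968-173866028) also had many reads in their bins. SNORD78 (chr1:173865622-173865686), between SNORD44 and SNORD79, had few. Each is given 5′ to 3′ on the minus strand, with the core of box C and box D in capitals.
SNORD47: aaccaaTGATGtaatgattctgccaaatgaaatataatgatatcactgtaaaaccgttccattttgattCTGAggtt
SNORD81: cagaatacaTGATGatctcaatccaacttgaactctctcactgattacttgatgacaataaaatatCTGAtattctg
SNORD76: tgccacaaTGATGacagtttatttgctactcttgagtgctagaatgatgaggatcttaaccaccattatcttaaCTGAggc
SNORD79: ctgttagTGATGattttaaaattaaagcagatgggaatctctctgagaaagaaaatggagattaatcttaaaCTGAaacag
SNORD80: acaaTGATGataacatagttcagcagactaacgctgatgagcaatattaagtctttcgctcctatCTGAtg
SNORD44: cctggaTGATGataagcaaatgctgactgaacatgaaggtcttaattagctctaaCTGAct
SNORD78: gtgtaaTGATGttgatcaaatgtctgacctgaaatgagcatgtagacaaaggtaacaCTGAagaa

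Box C and box D pair with each other near the ends of the snoRNA and bind the core proteins of the snoRNA particle. The search, on the RNA strand, was for TGATG within the first 20 bases and CTGA within the last 15, and all 10 snoRNAs held both. Of 8732 stretches of 72 bases of GAS5 that hold no snoRNA, 13 (0.149%) held the same arrangement. Box C/D snoRNAs are named for these boxes, so that contrast is a description and not a test. These letters describe the printed RNAs and do not by themselves mark where reads fell.

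The libraries differed widely in depth, which limits every comparison. Deposited values are signal (read coverage per bin), and the values of a library came in whole numbers of a smallest step, taken as 1 read overlapping a bin. A step was worth 12.85 and 13.93 in tagged-CFAP20 replicates 1 and 2, and 83.0 and 276.88 in CFAP20-KO replicates 1 and 2. Over all gene bodies the tagged-CFAP20 libraries held 165189 and 134891 read overlaps, and the CFAP20-KO libraries held 9146 and 3908. CFAP20 itself, seen through 60 bins of the MMP15 window (76.0% of the gene), held 43 and 39 overlaps in tagged-CFAP20, nearly all in coding bins (36 and 38), and 0 in both CFAP20-KO libraries. Summed over all genes, the deposited signal averaged 2.17 times as high in tagged-CFAP20 as in CFAP20-KO. How the authors scaled the libraries is not given in the sources used here, so each value is given below both as signal and as a share of the library's signal over all genes. Since these are bulk libraries, fewer cells that hold an RNA and less of it per cell cannot be told apart, and neither can the RNA's level and its capture.

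GAS5 was the member with the most signal, and it was lower in the tagged-CFAP20 libraries. It held 1332 read overlaps over both tagged-CFAP20 libraries, and 139 and 57 in CFAP20-KO replicates 1 and 2. As signal this was 9550 and 8207 in tagged-CFAP20, against 11537 and 15782 in CFAP20-KO, and the groups did not overlap. Absent overlap, here and below, is weak evidence, since an exact two-sided permutation test over 6 assignments can give no p under 0.333. The means were 8878 ± 949.9 in tagged-CFAP20 and 13660 ± 3002 in CFAP20-KO (SD, n = 2 each). Tagged-CFAP20 thus stood at 0.650 times the CFAP20-KO mean. With the reads of each group pooled, the ratio was 0.712, with a 95% exact counting interval of 0.598 to 0.856. Intervals here and below cover counting error only. The members were chosen on this contrast, so an interval of their ratio that leaves out 1 is not a test of it.

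As a share of the gene signal, the difference was wider. GAS5 amounted to 0.450% and 0.437% of the gene signal in tagged-CFAP20 replicates 1 and 2, and to 1.52% and 1.46% in CFAP20-KO replicates 1 and 2. The ratio of the mean shares was 0.298, and the 2 libraries of each group lay much closer to each other than to the other group. Set among the genes of the tables, GAS5 would stand 4th in both tagged-CFAP20 libraries and 1st in both CFAP20-KO libraries.

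**Figure D1:**
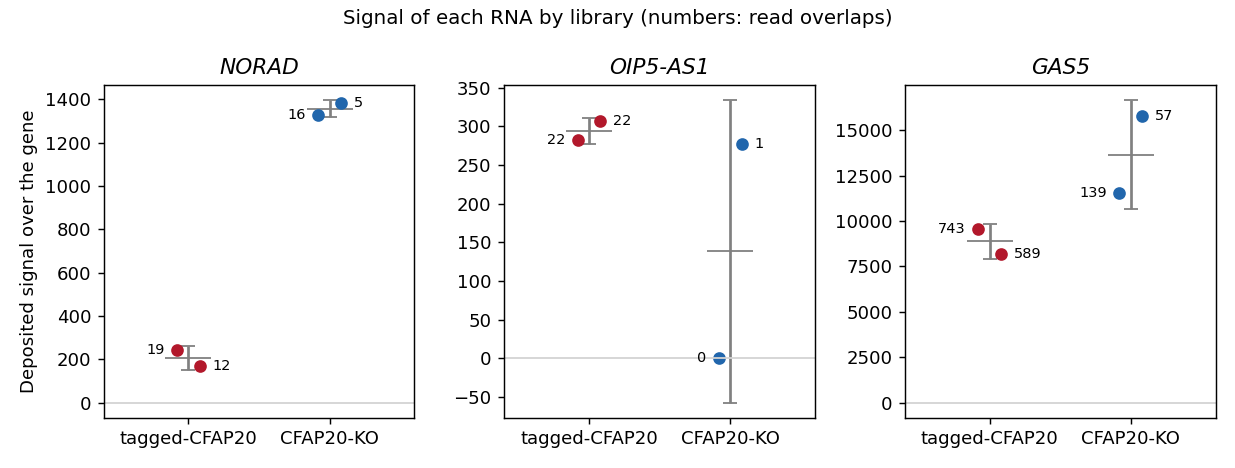
Deposited signal (vertical axis, linear, a scale for each panel) of NORAD, OIP5-AS1 and GAS5 in the 2 tagged-CFAP20 libraries (left) and the 2 CFAP20-KO libraries (right). Points are libraries with their read overlaps beside them, and bars are the mean ± SD of 2 libraries; NORAD and GAS5 are lower in tagged-CFAP20 without overlap, and the OIP5-AS1 point of CFAP20-KO replicate 2 is 1 read overlap.

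Most reads on GAS5 fell in bins that overlap its snoRNAs in all 4 libraries. The bins that overlap a snoRNA are 13 of the 51 bins (25.5%). They held 88.8% and 89.8% of the overlaps in tagged-CFAP20 replicates 1 and 2 (1189 of 1332 in both together), and 131 of 139 (94.2%) and 56 of 57 (98.2%) in CFAP20-KO replicates 1 and 2. The mean share was 89.3 ± 0.696% in tagged-CFAP20 and 96.2 ± 2.83% in CFAP20-KO (SD, n = 2 each), a difference of -6.92 percentage points that no test with 2 libraries a group can call (exact two-sided permutation test over 6 assignments, p = 0.333, the smallest possible). The 95% exact counting intervals of the libraries overlapped, being 85.9 to 91.4% and 86.6 to 92.5% in tagged-CFAP20 and 88.9 to 98.4% and 87.4 to 99.9% in CFAP20-KO.

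Read density showed the same step at the edges of the snoRNA bins. On snoRNA bins it was 254 and 203 overlaps per kb in tagged-CFAP20, and 50.4 and 21.5 per kb in CFAP20-KO. The 6 bins between snoRNA bins held 60.8 and 42.5 overlaps per kb in tagged-CFAP20, and 5.83 and 0.833 per kb in CFAP20-KO. The 32 bins before the first and after the last snoRNA held 10 and 9 overlaps in tagged-CFAP20 and 1 and 0 in CFAP20-KO. Within each library, then, the mean density was highest on snoRNA bins, lower between them and close to 0 outside. The bins between were uneven. Those next to SNORD47 and SNORD76 held 30 and 32 overlaps in tagged-CFAP20 replicate 1 and 24 and 17 in tagged-CFAP20 replicate 2. They held 4 and 3 in CFAP20-KO replicate 1 and 1 and 0 in CFAP20-KO replicate 2. Each bin between those of SNORD75 and SNORD74 held 3 or fewer in every library.

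**Figure D2:**
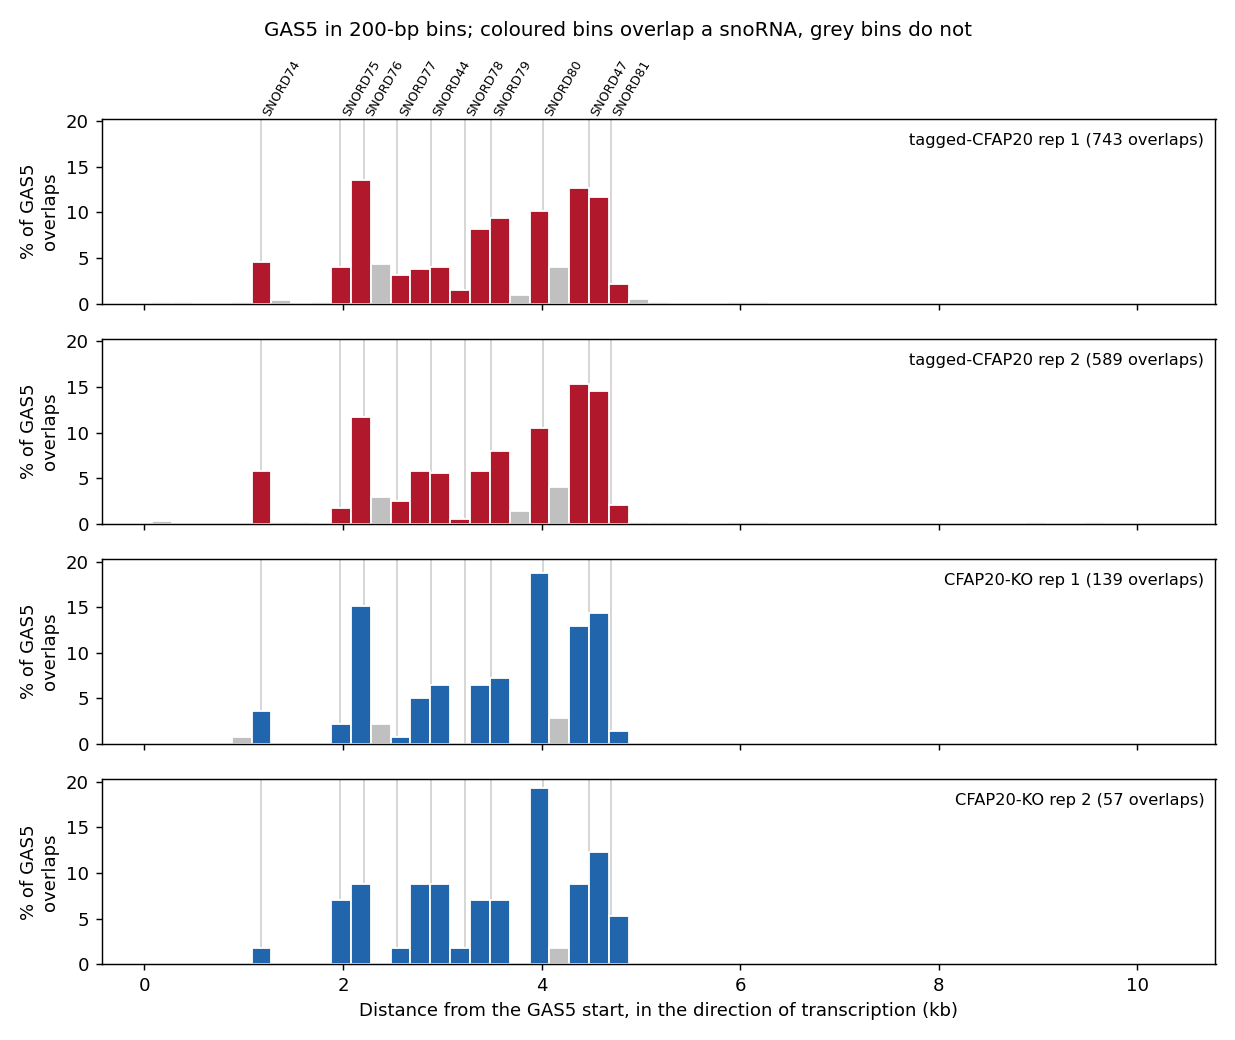
Share of each library's GAS5 read overlaps (percent, vertical axis) in each 200-bp bin, by distance from the GAS5 start in kb, for tagged-CFAP20 replicates 1 and 2 and CFAP20-KO replicates 1 and 2 from top to bottom. Coloured bars are bins that overlap a snoRNA, grey bars the others, and vertical lines the middle of each box C/D snoRNA; nearly all reads lie between about 1 and 5 kb in all 4 libraries.

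Host exons and snoRNAs alternate at short distances in GAS5, so 200-bp bins part them only in places. GENCODE 44 has transcripts that retain the introns, so 24 bins lie at least to 50% of their length in some exon, and these held 99.2% and 98.8% of the overlaps in tagged-CFAP20 and 99.3% and 100% in CFAP20-KO (exact two-sided permutation test, p = 0.333, the smallest possible). With the canonical transcript alone, the 4 snoRNA bins that touch no canonical exon (those of SNORD74, SNORD78 and SNORD80 and the outer bin of SNORD81) held 136 and 111 overlaps in tagged-CFAP20, and 33 and 16 in CFAP20-KO.

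The 7 bins that touch a canonical exon but no snoRNA held 64 and 42 overlaps in tagged-CFAP20, and 8 and 1 in CFAP20-KO. Most of those lay in the bins next to SNORD47 and SNORD76. The last canonical exon, more than 9 kb from the start and far from any snoRNA, held 0 and 1 overlaps in tagged-CFAP20 and 0 and 0 in CFAP20-KO. The 26 bins from 5 kb to the end of the gene, where GAS5-AS1 lies on the other strand, held 3 and 6 overlaps in tagged-CFAP20 and 0 in both CFAP20-KO libraries. The 4 bins shared with ZBTB37, also on the other strand, held 2 overlaps in each tagged-CFAP20 library and 0 in both CFAP20-KO libraries. The signal is not split by strand, so reads of these antisense neighbours cannot be told from those of GAS5 in these bins.

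The ratio between groups was not the same over the gene. On snoRNA bins the mean signal was 7927 ± 786.6 in tagged-CFAP20 and 13189 ± 3276 in CFAP20-KO (SD, n = 2 each). The ratio was 0.601, and 0.666 with pooled reads (95% counting interval 0.555 to 0.801). On the 38 bins without a snoRNA it was 951.4 ± 163 in tagged-CFAP20 and 470 ± 274 in CFAP20-KO, a ratio of 2.02, and 1.66 with pooled reads (0.736 to 4.00). By the ratio of means, the bins without a snoRNA thus stood near all genes (2.17) and the snoRNA bins under them. The test of that difference is the test of the snoRNA share above, which could not pass at this number of libraries, and the second ratio rests on 9 CFAP20-KO overlaps.

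Counted over the bins that hold each snoRNA, SNORD47 and SNORD81 held the most as a pair. Their 3 bins had 197 and 188 overlaps in tagged-CFAP20 and 40 and 15 in CFAP20-KO, or 29.2 ± 3.82% of GAS5 in tagged-CFAP20 and 27.5 ± 1.74% in CFAP20-KO (SD, n = 2 each). Most of SNORD81 lies in the outer of these bins, which had few reads, with 16 and 12 overlaps in tagged-CFAP20 and 2 and 3 in CFAP20-KO. The bin at the other end, which holds part of SNORD47, had 94 and 90 overlaps in tagged-CFAP20 and 18 and 5 in CFAP20-KO. The single highest bin of GAS5 differed between libraries, being that of SNORD76 in tagged-CFAP20 replicate 1, this SNORD47 bin in tagged-CFAP20 replicate 2, and that of SNORD80 in both CFAP20-KO libraries.

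SNORD76 and SNORD79 came next in tagged-CFAP20. SNORD76 had 101 and 69 overlaps in tagged-CFAP20, against 21 and 5 in CFAP20-KO, and SNORD79, which has 2 bins, had 131 and 81 in tagged-CFAP20, against 19 and 8 in CFAP20-KO. Their shares of GAS5 were close in both groups, with 12.7 ± 1.33% in tagged-CFAP20 and 11.9 ± 4.48% in CFAP20-KO for SNORD76, and 15.7 ± 2.74% and 13.9 ± 0.259% for SNORD79 in tagged-CFAP20 and CFAP20-KO.

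SNORD80 was the snoRNA whose share differed most between the groups. It had 75 and 62 overlaps in tagged-CFAP20 and 26 and 11 in CFAP20-KO. Its share of GAS5 was 10.1% and 10.5% in tagged-CFAP20, against 18.7% and 19.3% in CFAP20-KO. The means were 10.3 ± 0.306% in tagged-CFAP20 and 19.0 ± 0.419% in CFAP20-KO, so replicates lay close together and the groups apart. Counting error was wide, however, with 95% intervals of 7.66 to 12.9% and 7.86 to 13.9% in tagged-CFAP20 that overlap those of 11.6 to 27.6% and 8.60 to 34.1% in CFAP20-KO, and SNORD80 was singled out after its values were seen. In signal SNORD80 averaged 913.9 ± 70.8 in tagged-CFAP20 and 2602 ± 627.7 in CFAP20-KO, with a pooled ratio of 0.388 (0.254 to 0.623).

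SNORD44 lay in between, with 58 and 67 overlaps in tagged-CFAP20 and 16 and 10 in CFAP20-KO, a pooled ratio of 0.503 (0.307 to 0.880). The remaining snoRNAs held fewer reads. SNORD74, nearest the gene start, had 34 overlaps in each tagged-CFAP20 library and 5 and 1 in CFAP20-KO, and SNORD75 had 30 and 10 in tagged-CFAP20 and 3 and 4 in CFAP20-KO. The bin of SNORD77 and SNORA103 had 23 and 15 overlaps in tagged-CFAP20 and 1 in each CFAP20-KO library. SNORD78 had 11 and 3 overlaps in tagged-CFAP20 and 0 and 1 in CFAP20-KO, and it holds both boxes like its neighbours.

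**Figure D3:**
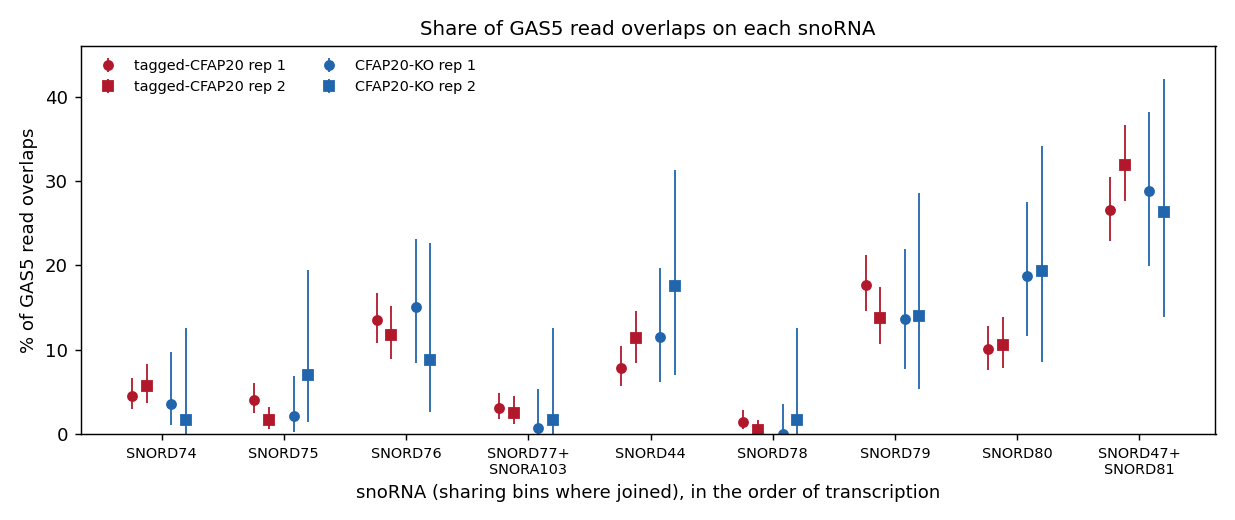
Share of each library's GAS5 read overlaps (percent, vertical axis) in the bins of each snoRNA in the order of transcription, with 95% exact counting intervals, tagged-CFAP20 in red and CFAP20-KO in blue (circles replicate 1, squares replicate 2). Shares are sums over bins, 3 for SNORD47 with SNORD81, 2 for SNORD79 and SNORD44 and 1 for each of the others. By these sums SNORD47 with SNORD81 is the highest in all 4 libraries and SNORD78 among the lowest. SNORD80 lies near 10% in tagged-CFAP20 and near 19% in CFAP20-KO.

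The pattern along GAS5 was alike across libraries. Over the 51 bins, Pearson's r of the overlaps was 0.970 between the tagged-CFAP20 libraries and 0.927 between the CFAP20-KO libraries, and 0.849 to 0.949 between libraries of different groups. The bins share their gene, so these are descriptions. In 5 of the 7 printed snoRNAs every 30-base stretch occurs once in hg38. The exceptions are SNORD81, where 85.4% of the stretches do, and SNORD78, where 83.3% do, and over all of GAS5 the share is 80.9%.

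Other snoRNAs seen through the gene windows give a scale for these ratios. Of 325 snoRNAs outside GAS5, 113 had a read in some library, and 10 had at least 20 overlaps and signal in both groups. Their ratios of tagged-CFAP20 to CFAP20-KO signal had a median of 0.811 and ran from 0.192 to 4.35, with 5 under 1. The GAS5 snoRNA bins (0.601) lay inside that range. A snoRNA without CFAP20-KO reads has no ratio and was left out, so the median and range may miss high ratios. SNORD29, in the snoRNA host SNHG1, had 39 and 32 overlaps in tagged-CFAP20 and 9 and 3 in CFAP20-KO, a ratio of 0.600. SNORD27, seen through the same window, had 41 and 14 overlaps in tagged-CFAP20 and 2 and 0 in CFAP20-KO, a ratio of 4.35, the highest of the 10. SNORD82, in the nucleolin gene NCL, had 37 and 34 overlaps in tagged-CFAP20 and 4 and 1 in CFAP20-KO, a ratio of 1.56. Most rest on few CFAP20-KO reads.

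**Figure D4:**
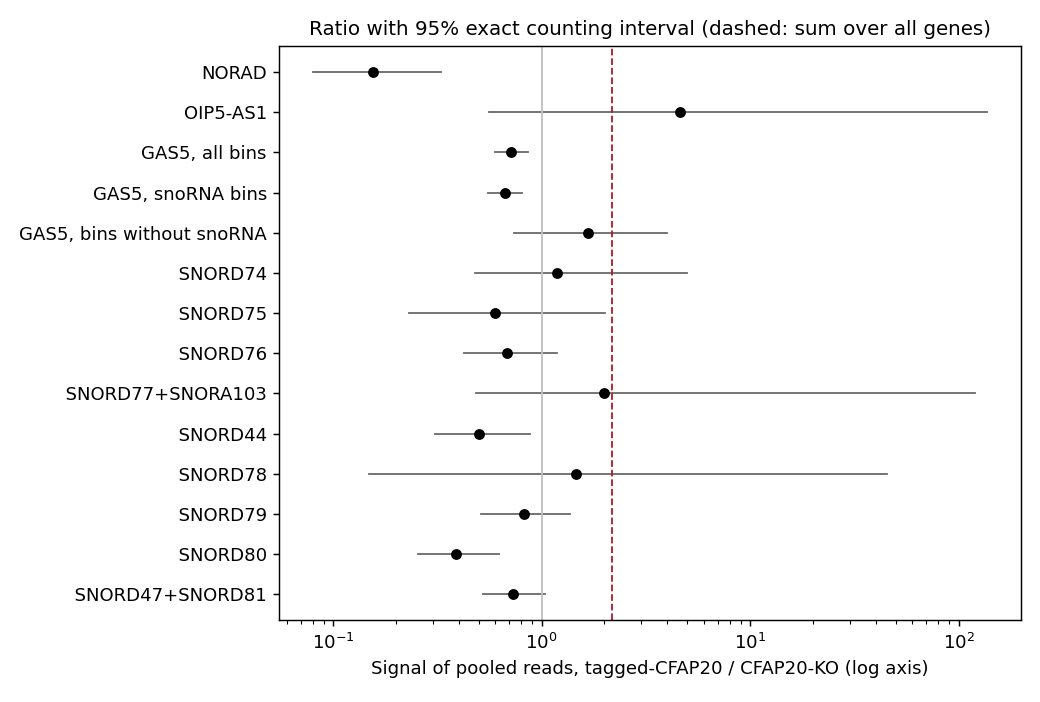
Ratio of signal in tagged-CFAP20 over CFAP20-KO with the reads of each group pooled (horizontal log axis), with 95% exact counting intervals, for NORAD, OIP5-AS1, GAS5, its bins with and without a snoRNA, and each snoRNA. The solid line is at 1. The dashed line is the ratio of mean signals over all genes (2.17), which is not a pooled-read ratio like the points. NORAD is the lowest at 0.155, and the intervals of OIP5-AS1, SNORD77 with SNORA103 and SNORD78 are wide because they rest on 1 or 2 CFAP20-KO overlaps.

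NORAD (chr20:36045618-36051018, minus strand, a single exon of 5401 bases) was the member with the lowest ratio. It held 19 and 12 read overlaps in tagged-CFAP20 replicates 1 and 2, and 16 and 5 in CFAP20-KO replicates 1 and 2, although the tagged-CFAP20 libraries were far deeper. As signal this was 244 and 167 in tagged-CFAP20, against 1328 and 1384 in CFAP20-KO, and the groups did not overlap. The means were 206 ± 54.5 in tagged-CFAP20 and 1356 ± 39.9 in CFAP20-KO (SD, n = 2 each). The ratio of these means was 0.152, and it was 0.155 with pooled reads (95% counting interval 0.0802 to 0.331).

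As a share of the gene signal, NORAD stood at 0.0115% and 0.00890% in tagged-CFAP20, and at 0.175% and 0.128% in CFAP20-KO, a ratio of 0.0673. It ranked 2013th and 2282nd among the genes of the tables in tagged-CFAP20 replicates 1 and 2, and 58th and 127th in CFAP20-KO replicates 1 and 2. Few reads lay around the gene. The 5 kb before its start held 0 overlaps in all 4 libraries, and the 5 kb after its end held 0 and 1 in tagged-CFAP20 and 1 and 0 in CFAP20-KO. Only 35.6% of the 30-base stretches of NORAD occur once in hg38, and how reads with several matches were treated is not given in the sources used here, so part of its signal may have been placed elsewhere or come from similar copies in any of the libraries.

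Along NORAD the reads were scattered. The 14 bins nearest the start held 14 of 19 and 2 of 12 overlaps in tagged-CFAP20 (73.7% and 16.7%), and 9 of 16 and 4 of 5 in CFAP20-KO (56.3% and 80.0%). The mean shares were 45.2 ± 40.3% in tagged-CFAP20 and 68.1 ± 16.8% in CFAP20-KO (SD, n = 2 each), which differed by less than the spread between replicates (exact two-sided permutation test, p = 0.667). The bin 2.8 kb from the start was the one with reads in all 4 libraries, with 1 and 3 overlaps in tagged-CFAP20 and 2 and 1 in CFAP20-KO.

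Pumilio motifs are the feature NORAD is known for, so they were set beside the reads. The motif searched was TGTANATA, where N is any base. NORAD held 15 copies on the RNA strand and 1 on the other, in 11 of its 27 bins (40.7%). Over the first 5339 bases of all 9667 genes, 2.32% of bins of the same length held one on the transcribed strand, and 10 genes (0.103%, NORAD among them) held at least 15. A pair of neighbouring copies 2.6 kb from the start and the copy nearest the start are shown 5′ to 3′ on the minus strand, with the motif in capitals (motifs at chr20:36048315-36048322, chr20:36048306-36048313 and chr20:36050193-36050200).
NORAD motif at 2697 bases: tgctatacTGTATATAttgtatat
NORAD motif at 2706 bases: gtatatatTGTATATAtaacggac
NORAD motif nearest the start: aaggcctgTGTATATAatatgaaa

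Reads fell on motif bins about as often as those bins make up the gene. The motif bins held 9 of 19 and 5 of 12 overlaps in tagged-CFAP20 (47.4% and 41.7%), and 9 of 16 and 2 of 5 in CFAP20-KO (56.3% and 40.0%). The bin of the printed pair held 2 overlaps in each tagged-CFAP20 library and 2 and 0 in CFAP20-KO. The bin of the motif nearest the start held 1 and 0 overlaps in tagged-CFAP20 and 1 and 1 in CFAP20-KO. A match is a description of the sequence and is not evidence of a bound protein.

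**Figure D5:**
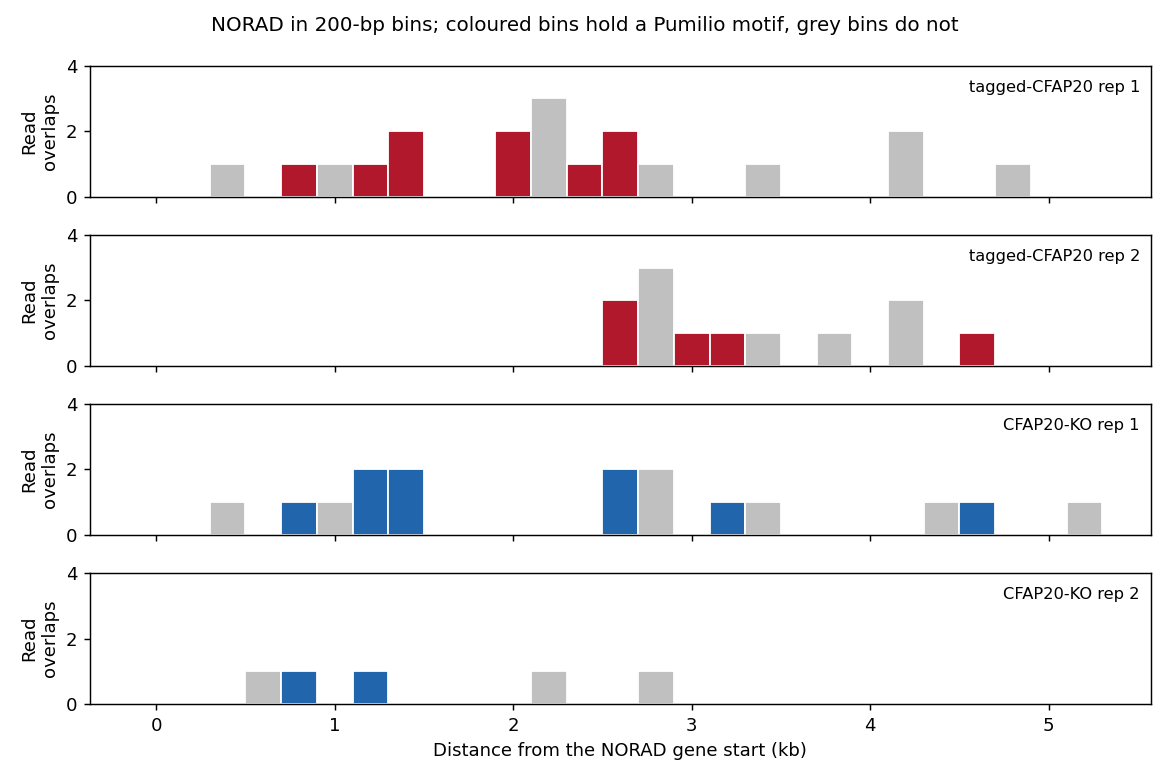
Read overlaps (vertical axis) in each 200-bp bin of NORAD by distance from its listed start in kb, for tagged-CFAP20 replicates 1 and 2 and CFAP20-KO replicates 1 and 2 from top to bottom. Coloured bars hold a Pumilio motif and grey bars do not; no bin exceeds 3 overlaps, and the 19, 12, 16 and 5 overlaps are spread over both kinds.

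OIP5-AS1 (chr15:41283958-41322392, plus strand) was the sparsest member, and its level could not be set apart from that of the control at this depth. Over its listed 22530 bases it held 22 read overlaps in each tagged-CFAP20 library, and 0 and 1 in CFAP20-KO replicates 1 and 2. As signal this was 283 and 307 in tagged-CFAP20, against 0 and 277 in CFAP20-KO, where the single overlap of the shallow replicate 2 weighs nearly as much as all 22 of a tagged-CFAP20 library. The means were 295 ± 16.8 in tagged-CFAP20 and 138 ± 196 in CFAP20-KO (SD, n = 2 each). With pooled reads the ratio was 4.61, with a 95% counting interval of 0.560 to 136. Without CFAP20-KO replicate 1 the ratio of means was 1.06, against 2.13 with all libraries, and without CFAP20-KO replicate 2 no ratio can be given, since CFAP20-KO replicate 1 held 0 overlaps.

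Per length, OIP5-AS1 was also low within the tagged-CFAP20 libraries. It held 0.973 overlaps per kb in both, where NORAD held 3.52 and 2.22 per kb and GAS5 held 72.8 and 57.7 per kb. In CFAP20-KO replicates 1 and 2, OIP5-AS1 held 0 and 0.0442 overlaps per kb, NORAD 2.96 and 0.926, and GAS5 13.6 and 5.59. GAS5 was thus the highest of the 3 per length in every library, followed by NORAD and then OIP5-AS1. Over their listed lengths, OIP5-AS1 had 0.0133% and 0.0163% of the gene signal in tagged-CFAP20, where NORAD had 0.0115% and 0.00890%. The part of OIP5-AS1 past its listed end is not counted in these shares.

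The reads of OIP5-AS1 did not keep to one kind of bin. Bins at least to 50% of their length in an exon of any transcript are 77 of its 113 bins (68.1%), and they held 19 of 22 and 13 of 22 overlaps in tagged-CFAP20 (86.4% and 59.1%). The density in these bins was 1.23 overlaps per kb against 0.417 in the other bins in tagged-CFAP20 replicate 1, and 0.844 against 1.25 in tagged-CFAP20 replicate 2, so the libraries went opposite ways. CFAP20-KO replicate 2 had its only overlap in such a bin and CFAP20-KO replicate 1 had none to divide, so no test over the 4 libraries can be made. Within the listed stretch, 5 bins touch an exon of the canonical transcript. They held 3 and 1 overlaps in tagged-CFAP20 and 0 in both CFAP20-KO libraries. Most of that transcript, with its last exon, lies past the listed end, so these bins cover little of it. Of its 30-base stretches, 72.0% occur once in hg38.

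The miR-7 site of OIP5-AS1 lies at chr15:41300574-41300599, in an exon. It is shown with miR-7-5p (RefSeq), both 5′ to 3′, the seed (bases 2 to 8 of the microRNA) and its match in capitals. Beyond the seed and the base before it, 15 of 16 bases pair when a bulge of 2 bases is allowed.
OIP5-AS1 miR-7 site: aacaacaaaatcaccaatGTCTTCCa
hsa-miR-7-5p: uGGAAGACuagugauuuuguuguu

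The bin with that site held 1 and 0 overlaps in tagged-CFAP20 and 0 in both CFAP20-KO libraries, which is too few to describe reads at the site.

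Genes next to NORAD and OIP5-AS1 had few reads. CNBD2, within 15 kb of NORAD, held 0 and 1 overlaps in tagged-CFAP20 and 0 in both CFAP20-KO libraries. CHP1, next to OIP5-AS1, held 19 and 12 overlaps in tagged-CFAP20 and 1 in each CFAP20-KO library. In limma across all genes, with Benjamini-Hochberg adjustment, CHP1 had an adjusted p of 0.785 and did not pass.

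A few other genes had levels that moved like the members' across the 4 libraries. Among the 1112 genes above 0 in all libraries and with at least 10 overlaps, likeness was the smallest distance between log2 signals, each gene centred on its own mean. The nearest to NORAD were LINC00539 (distance 0.604), ZNF470 (0.821) and GRB14 (1.20), all with 8 or fewer CFAP20-KO overlaps in all. The nearest to GAS5 were PRR16 (0.138), AKIRIN1 (0.224) and GCNT1 (0.227). PRR16 is the only one of these with many reads, with 247 and 213 overlaps in tagged-CFAP20 and 44 and 19 in CFAP20-KO. OIP5-AS1 was at 0 in CFAP20-KO replicate 1 and was left out of this measure.

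Across all genes, limma on log2(signal + 10) passed 1678 of 4461 genes tested as higher in tagged-CFAP20 (37.6%) and 3 as lower (0.0672%). Both CFAP20-KO libraries were at 0 for 1589 of those 1678, and there depth and level cannot be told apart. An exact binomial test of the pooled reads was added after the data were seen. Pooling leaves out the spread between libraries, so its p-values, here and below, cover counting error only. The exact test passed 322 of 3668 genes as higher (8.78%) and 2 as lower (0.0545%) on the deposited scale. On the share of gene signal it passed 4 as higher (0.109%) and 9 as lower (0.245%). These shares are the background for the lists below; NORAD, OIP5-AS1 and GAS5 were chosen on this contrast, and their own tests in it are not given.

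Genes that work with the members were held against that background. Of 12 cytoplasmic long noncoding RNAs listed, the tables hold 2, NORAD and OIP5-AS1, and of 33 snoRNA host genes they hold 0. Of 11 nuclear long noncoding RNAs they hold 1, FIRRE, an RNA that helps to organise chromosomes, with signal of 912.6 and 362 in tagged-CFAP20 and 332 and 830.6 in CFAP20-KO, which overlap (limma adjusted p = 0.916).

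Of 17 proteins that bind the members or work with them, the tables hold 4, and limma passed 0 of them, with a median log2 change of 1.42 against 2.10 over all genes tested. The exact test passed 1 as higher on the deposited scale. PUM2, one of the Pumilio proteins bound by NORAD, had 266 and 173 read overlaps on its own gene in tagged-CFAP20 and 12 and 7 in CFAP20-KO. As signal the means were 2915 ± 713.1 in tagged-CFAP20 and 1467 ± 666.2 in CFAP20-KO (SD, n = 2 each), without overlap (limma adjusted p = 0.180, exact test adjusted p = 0.00744). KHDRBS1, an RNA-binding regulator of splicing, had signal of 1337 and 863.9 in tagged-CFAP20 and 332 and 277 in CFAP20-KO (limma adjusted p = 0.0813). No gene of this list passed the exact test on the share of gene signal.

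Of 12 genes of nonsense-mediated decay and TOP mRNA translation, which bear on the fate of the spliced GAS5 host, the tables hold 4. Limma passed 0 of them, with a median log2 change of 1.87, and the exact test passed 2 as higher on the deposited scale and 0 on the share. LARP4, which protects mRNA tails, had 148 and 82 read overlaps in tagged-CFAP20 and 7 and 1 in CFAP20-KO, with mean signal of 1522 ± 537.2 in tagged-CFAP20 and 429 ± 215 in CFAP20-KO (SD, n = 2 each; limma adjusted p = 0.110, exact test adjusted p = 0.0482). DCP2, the mRNA decapping enzyme, had signal of 784.1 and 682.7 in tagged-CFAP20 and 83.0 and 0 in CFAP20-KO (limma adjusted p = 0.0972, exact test adjusted p = 0.0494). UPF3B and UPF3A, which mark mRNAs for decay, did not pass, with limma adjusted p of 0.132 and 0.126.

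Few markers of the cell line could be read. Of 11 RPE1 line markers the tables hold 4, and COL1A1 and LOX had signal in all 4 libraries. MITF had 31 and 21 overlaps in tagged-CFAP20 and 5 and 0 in CFAP20-KO, while COL1A2 was at 0. LOX, an enzyme that crosslinks collagen, had 59 and 67 overlaps in tagged-CFAP20 and 18 and 7 in CFAP20-KO. Its signal was lower in tagged-CFAP20 without overlap, at 845.9 ± 123.9 in tagged-CFAP20 and 1716 ± 314.1 in CFAP20-KO (SD, n = 2 each). LOX passed neither limma (adjusted p = 0.0849) nor, on the deposited scale, the exact test (adjusted p = 0.149), and it passed as lower in the exact test on the share of gene signal (adjusted p = 0.000435). Of the genes of other cell types, SNAP25, of neurons, had signal of 141 and 209 in tagged-CFAP20, from 11 and 15 overlaps, beside 244 and 167 for NORAD in the same libraries. RPE65, of the mature pigment epithelium, had 4 and 2 overlaps in tagged-CFAP20, and SPI1, of blood, had 0 and 1. All 3 were at 0 in both CFAP20-KO libraries, while CD3E and ALB were at 0 in all 4 libraries. RPE65 and SNAP25 passed in limma as higher (adjusted p = 0.0133 and 0.00597), as did many genes that were at 0 in both shallow CFAP20-KO libraries. Their part in the results above was not tested.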

How the data were processed

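Per the labels, RNA crosslinked to protein was sequenced from 2 tagged-CFAP20 and 2 CFAP20-KO libraries. For each library the authors deposited a table of signal (read coverage) with genes of at least 3 kb as lines and 200-bp bins up to 100 kb on each side of the gene start. The deposited columns of unit other give each gene's position, strand, length and name. Per the submitters' processing notes, UMI-tools 1.0.0, Bowtie2 2.3.5, HOMER 4.8.2, R 4.0.5 and hg38 were used. The sources used here do not give their roles, the scaling or the read length. Another 1 column per table matched no sample and was not used.

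Values divided by the library's step were whole (100.0% within 0.01) and are called read overlaps. A read covered 1.36 bins on average, so exact tests and intervals use overlaps divided by it. Bins are centred on their label, which windows of genes on opposite strands showed. Genes absent from a table were set to 0, and 460 of them seen through a neighbour's window had 0 signal. Bins of GAS5 came from the window of a listed gene. GENCODE 44 gave exons, and RefSeq gave snoRNAs, miR-7 and names. Of 9667 genes, 9478 matched a symbol.

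Signal per gene was tested with limma 3.58.1 in R 4.3.3 (trend, log2(signal + 10), genes above 0 in at least 2 libraries, Benjamini-Hochberg threshold 0.05), checked on simulated data. NORAD and OIP5-AS1 both passed its filter on low values and stayed in the fit, and their own tests are not given. Shares within a gene had an exact two-sided permutation test over 6 assignments of libraries. The exact binomial test took genes with at least 5 pooled reads. Named genes were the members, neighbours within 20 kb, the 3 genes of each list with most signal and those passed in limma, and the 3 most like each member; some of these are not reported here. Members and lists were chosen with earlier results of these data known. Gene signal and overlaps of 3 reads set the floor of a library, 52.3 and 56.7 in tagged-CFAP20 and 338 and 1127 in CFAP20-KO.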

Additional observations from a re-analysis of the deposited data

Results flagged for a closer look

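A pair of stretches outside those read for the members had signal in the tagged-CFAP20 libraries and 0 in both CFAP20-KO libraries. Past the listed end of OIP5-AS1, up to its end in GENCODE 44, 80 bins summed to a signal of 103 and 209 in tagged-CFAP20 replicates 1 and 2, a mean of 156 over both libraries, from 8 and 15 read overlaps. OIP5 lies there on the other strand, and the signal is not split by strand. Within 5 kb on either side of GAS5, 50 bins summed to 103 and 83.6 in tagged-CFAP20 replicates 1 and 2, a mean of 93.2 over both libraries, from 8 and 6 overlaps. Both means are under 260, the signal that 3 pooled CFAP20-KO reads would give, so the 0 in CFAP20-KO does not set the groups apart at this depth. The 5 kb before OIP5-AS1 went another way, with 4 and 1 overlaps in tagged-CFAP20 and 0 and 2 in CFAP20-KO. Groups of 2 libraries are too small to mark single libraries as far from the others.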

How the results depend on the processing

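NORAD and GAS5 stayed lower in tagged-CFAP20 under every alternative that used the whole gene or its snoRNA bins. Both were chosen on this contrast and every alternative reuses the same libraries, so the kept direction describes the processing and does not test the difference. With each library scaled to the same window total, the log2 ratio of tagged-CFAP20 over CFAP20-KO was -3.88 for NORAD (as reported, -2.72) and -1.74 for GAS5 (as reported, -0.62). On GAS5 bins without a snoRNA it was 1.02. Leaving out 1 library at a time gave -3.02 to -2.47 for NORAD, -0.83 to -0.38 for GAS5 and 0.09 to 1.15 for OIP5-AS1. For OIP5-AS1 the ratio with the same window total was 0.22, and none could be given without its top bin or without CFAP20-KO replicate 2. The share of reads in exons turned round when bins touching a canonical exon were taken. It went from -0.64 to 4.52 percentage points for GAS5 and from -27.3 to 9.09 for OIP5-AS1. The OIP5-AS1 value leaves out the canonical exons past its listed end, and the cause of either turn was not tested. The share near the start of NORAD, -22.9 points, ran from -51.5 to 5.56 with 1 library left out, and turned round without tagged-CFAP20 replicate 2.

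Limma passed 1681 genes, 1046 with a pseudocount of 1 read of the shallowest library, 0 with no filter (1714 with an unadjusted p under 0.05) and 0 to 3674 with 1 library left out. The exact test passed 324 on the deposited scale and 13 on the share. Of the 11 listed genes tested, limma passed 1 (a gene chosen on this contrast, so nothing is read from it), 2 with that pseudocount, 2 with the same window total, 0 with no filter, 0 to 10 with 1 library left out, and the exact test 4 on the deposited scale. Leaving out 1 library leaves a group of 1 library, and the count of listed genes then moved with that of all genes. Most of all genes tested passed without either CFAP20-KO library, and 0 passed without either tagged-CFAP20 library. Nothing is therefore read from the listed genes under those settings. With replicate number as a block, limma passed 1874 genes, 0 of them lower, and 0 listed genes. Same-numbered libraries shared no deviation (r = 0.00515 across genes), so the numbers are not taken as pairs, and the paired values were -2.75 for NORAD, -0.61 for GAS5, -0.64 points for its exon share and -22.9 points for NORAD's share near the start. No other gene's window covers GAS5 on the mapped side, so that alternative was not run. The shallow CFAP20-KO libraries limit every value.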
